A study of Homo sapiens with 6 samples.

Results

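The 764 regions described here are ATAC-seq peaks of vehicle-treated thyroid cells that were also present after 6 h of T3 and were missing after 24 h of T3. ATAC-seq marks accessible DNA through the cuts of the Tn5 transposase. A member is a peak of the vehicle list that overlapped a peak of the T3 6 h list by at least 50% of the shorter peak and overlapped no peak of the T3 24 h list to that extent, on any chromosome or scaffold. The members were therefore chosen on presence in the deposited lists, and their presence at 6 h and absence at 24 h are descriptions and not findings. They made up 764 of the 7103 vehicle peaks (10.8%). Among all vehicle peaks, 33.2% were shared with the 6 h list and 66.4% were absent from the 24 h list. Of the 2356 vehicle peaks with a 6 h partner, 764 (32.4%) were members and 1592 were present in all 3 lists.

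The cells were Nthy-ORI, an immortalised line from normal human thyroid epithelium, kept for 24 h in hormone-stripped medium. The 3 groups of 2 samples received NaOH vehicle (labelled 6 h), T3 at 10 nM over 6 h or the same dose over 24 h, and all samples are of this line. T3 is triiodothyronine, the active thyroid hormone. The 3 lists hold 7103, 12385 and 60661 peaks in the order vehicle, 6 h and 24 h, so the members are missing from the longest list. Each list was made by the authors from both samples of a group, so there was 1 list per group, no replicated value per condition and no test between conditions. Whether the samples of a group were separate cultures is not in the labels. No vehicle at 24 h was analysed here, and hormone and time cannot be told apart at 24 h. The depth of the samples is unknown, so absence of a peak does not mean closed chromatin. Intervals beside shares are exact (Clopper-Pearson, 95%) and those beside medians are from order statistics; both reflect counting alone.

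As background, thyroid hormone receptors bind DNA with and without hormone and change the accessibility of nearby chromatin through remodelling complexes such as SWI/SNF. Accessible DNA in most cells lies mainly at promoters and enhancers. Centromeres, in contrast, are made of alpha satellite, a short unit repeated in tandem over megabases, on which the kinetochore assembles. In the hg38 assembly these arrays are represented by modelled sequence, in which near-identical copies make the origin of a short read hard to place.

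Few members touched a promoter. The rule bears on this share, since members are missing from the 24 h list, where 17.8% of peaks touched a promoter. Of the 764 members, 3 (0.393%) overlapped a promoter window of RefSeq by at least 1 base, against 95 of the 1592 vehicle peaks in all 3 lists (5.97%) and 234 of the whole vehicle list (3.29%), where a window runs from 250 bases before to 50 bases after a start. The members' promoters were those of LOC124904583, a protein-coding gene of chromosome 1 without a given name, of NFILZ on chromosome 19, at a start inside the annotated gene, and of GRAP2, an adaptor protein of T cells, where the peak covered only 9 bases. The sequences of 2 of them are set beside 1 chosen promoter with a peak in all 3 lists, and 3 windows are too few to describe the members. The windows of LOC124904583, NFILZ and GRAP2 held 7, 10 and 2 CpG, against a median of 22 in the 147 promoters touched by vehicle peaks in all 3 lists, 26 in the 15614 touched by 24 h peaks and 14 in all 35116 promoters of the table. The 250 bases before the start are printed for LOC124904583 (chr1:202825936-202826185, minus strand), NFILZ (chr19:8655327-8655576, plus strand) and, as the comparison, IFNAR1 (chr21:33324720-33324969, plus strand), a chain of the type I interferon receptor. IFNAR1 was taken because its peak had the highest vehicle signal among peaks in all 3 lists and a whole protein-coding promoter window, within the genes considered for printing. The sequences are RefSeq's, build GRCh38.p14, written 5′ to 3′, with each CpG in capitals.
LOC124904583: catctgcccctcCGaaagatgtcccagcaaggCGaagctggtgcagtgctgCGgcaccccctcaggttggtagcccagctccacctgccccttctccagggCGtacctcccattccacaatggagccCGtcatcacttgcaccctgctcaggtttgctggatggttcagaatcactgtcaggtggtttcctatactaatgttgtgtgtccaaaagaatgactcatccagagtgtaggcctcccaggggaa
NFILZ: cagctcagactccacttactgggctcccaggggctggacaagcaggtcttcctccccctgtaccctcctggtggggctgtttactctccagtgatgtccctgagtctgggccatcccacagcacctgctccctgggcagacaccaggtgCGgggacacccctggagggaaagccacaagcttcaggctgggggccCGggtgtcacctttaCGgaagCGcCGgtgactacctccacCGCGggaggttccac
IFNAR1: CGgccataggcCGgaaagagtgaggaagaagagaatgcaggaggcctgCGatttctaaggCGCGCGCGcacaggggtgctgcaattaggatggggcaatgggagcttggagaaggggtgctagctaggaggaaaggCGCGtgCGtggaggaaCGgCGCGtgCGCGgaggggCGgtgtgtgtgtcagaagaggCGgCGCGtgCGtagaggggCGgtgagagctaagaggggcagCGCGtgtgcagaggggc
The printed stretches hold 5 CpG at LOC124904583, 7 at NFILZ and 23 at IFNAR1. The 300-base window of IFNAR1 held 30 CpG, above the median of 22 for promoters touched by peaks in all 3 lists, which ranged between 2 and 42. The thyroid hormone receptor half-site AGGTCA, searched on both strands of the 300-base windows, occurred in none of these 3 windows and in 13.8% of all promoters of the table. The SP1 core GGGCGG occurred 3 times at IFNAR1 and was not found at LOC124904583 or NFILZ, against 44.95% of all promoters that hold it at least once. The members' main sites, described next, lie away from promoters, and their sequence was not used here.

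Most members lay in DNA without genes. Stretches of at least 2 Mb between adjacent RefSeq genes of any kind number 29, and 467 members (61.1%, interval 57.6 to 64.6) had their summit in such a stretch. The share was 44.7% (42.3 to 47.2) for vehicle peaks in all 3 lists, 16.9% (14.4 to 19.7) for those in vehicle and 24 h only and 28.7% (27.3 to 30.1) for those in the vehicle list only. The interval of the members did not overlap those of the other sets, but peaks of 1 list are not replicates and no test was made. The rule bears on this share as well, since members are missing from the 24 h list, where 1.76% of peaks lay in such stretches. Long gene-free DNA of human chromosomes includes the centromeres as background, but no centromere annotation was used here. Only 6 members (0.785%, 0.289 to 1.701) had their summit no more than 1 kb from a protein-coding gene's boundary, against 5.09% (4.06 to 6.28) of the peaks in all 3 lists, 11.9% (9.74 to 14.4) of those in vehicle and 24 h, 1.52% (1.16 to 1.95) of those in vehicle only and 3.41% (2.997 to 3.86) of the whole vehicle list. The intervals of the members and of the peaks in vehicle only overlapped. Another 84 members lay inside protein-coding genes, 174 elsewhere between genes and 33 on scaffolds that are not placed in a chromosome. These were 10.99%, 22.8% and 4.32% of the members. The shares were 15.3%, 26.9% and 7.91% for peaks in all 3 lists and 31.7%, 37.7% and 1.75% for those in vehicle and 24 h. They were 27.6%, 40.01% and 2.18% for those in vehicle only and 23.5%, 34.97% and 3.65% for the whole vehicle list. Outside the stretches and scaffolds, 31.8% of members lay inside genes and 65.9% elsewhere between genes, against 38.003% and 56.5% of vehicle peaks.

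**Figure D1:**
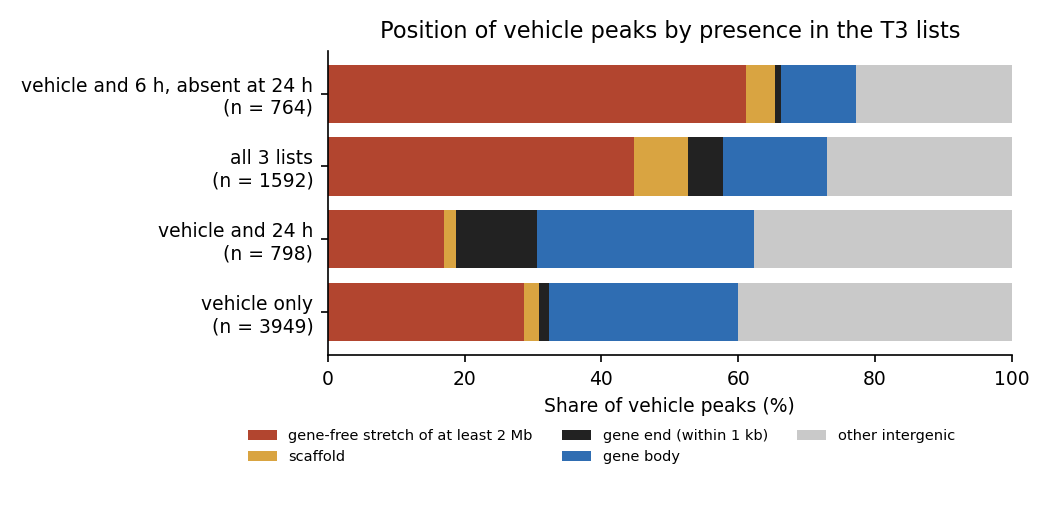
Share of vehicle peaks (%) in 5 kinds of position, for members (top, n = 764) and the other vehicle peaks by the lists that hold them. Gene-free stretches take 61.1% of the members and 44.7%, 16.9% and 28.7% of the other sets from top to bottom.

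Chromosomes 7, 1, 2 and 10 held 95, 86, 84 and 83 members, of which 64, 75, 61 and 54 were in gene-free stretches. These chromosomes also held the most peaks of the whole vehicle list, with 652, 844, 556 and 576 of the 7103. In windows of 1 Mb, 25 windows with 5 or more members held 396 of them, while 227 of 297 windows with any member held only 1. The windows named below also held many vehicle peaks that are not members. The share of all vehicle peaks in the 25 windows is not given, so the clustering cannot be called particular to members. The window with most was chr2:92000001-93000000, with 42 members, where the whole lists held 121 peaks in vehicle, 65 at 6 h and 11 at 24 h. The next were chr1:123000001-124000000, with 38 members among 193 vehicle, 158 6 h and 138 24 h peaks, and chr13:17000001-18000000, with 29 members among 132, 116 and 103 peaks in the same order. Peaks at 24 h were thus nearly as many as at 6 h in the windows of chromosomes 1 and 13 and far fewer in that of chromosome 2.

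**Figure D2:**
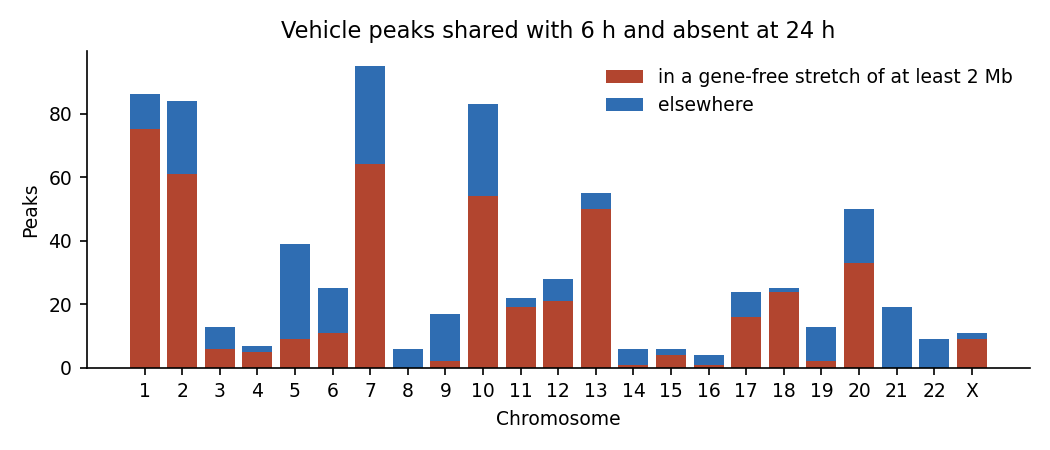
Number of members per chromosome (1 to 22 and X), split into those in a gene-free stretch of at least 2 Mb and those elsewhere. Chromosomes 7, 1, 2 and 10 carry 83 to 95 members each, and most of them lie in gene-free stretches.

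The gene-free stretches differed in how much of the early pattern was found at 24 h. Over all of them, 467 of the 1179 vehicle peaks with a 6 h partner were absent at 24 h (39.6%, 36.8 to 42.5), against 264 of 1018 (25.9%, 23.3 to 28.7) on the rest of the chromosomes. Of the 12 stretches with at least 20 such peaks, that of chromosome 2 had the highest share, 61 of 67 (91.0%, 81.5 to 96.6). It was followed by chromosome 18 with 24 of 28 (85.7%, 67.3 to 96.0), chromosome 11 with 19 of 23 (82.6%, 61.2 to 95.1), chromosome 12 with 21 of 26 (80.8%, 60.7 to 93.5) and chromosome 7 with 63 of 104 (60.6%, 50.5 to 70.0). The lowest share was on chromosome 1, where 75 of 365 were absent (20.5%, 16.5 to 25.1), next to chromosome 13 with 50 of 167 (29.9%, 23.1 to 37.5), chromosome 17 with 16 of 52 (30.8%, 18.7 to 45.1) and chromosome 20 with 33 of 103 (32.0%, 23.2 to 42.0). Chromosomes 6, 10 and 5, at 35.5%, 39.1% and 40.9%, had intervals that overlapped those of chromosomes 13, 17 and 20. The intervals of chromosome 6 (19.2 to 54.6) and chromosome 5 (20.7 to 63.6) also overlapped that of chromosome 7. That of chromosome 5 overlapped those of chromosomes 11 and 12 as well, so the stretches did not fall into separate groups. The intervals of chromosomes 2, 18, 11 and 12 overlapped each other and lay above those of chromosomes 1, 13, 17 and 20.

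Peaks that the rule did not use gave a similar order only in part. Vehicle peaks of these stretches with no 6 h partner were absent at 24 h in 97.4% of 152 cases on chromosome 2, 97.1% of 136 on chromosome 18 and 96.7% of 90 on chromosome 7. On chromosomes 1, 13 and 20 the counts were 105 of 140, 60 of 87 and 66 of 99. Chromosomes 17, 6, 10 and 5 were high by this measure, with 97.1% of 35, 94.7% of 19, 92.4% of 92 and 92.1% of 38, although 30.8%, 35.5%, 39.1% and 40.9% of their peaks with a 6 h partner were absent. Across the 12 stretches both shares had a Spearman rho of 0.65, which is a description, since both were read from the same vehicle and 24 h lists. The 6 h peaks with no vehicle partner were absent at 24 h in 29 of 29 cases in the stretch of chromosome 2 and 33 of 34 in that of chromosome 18, against 33 of 51 on chromosome 1 and 20 of 37 on chromosome 13. Chromosomes 11, 12 and 7 had 16 of 16, 17 of 17 and 12 of 13. Stretches with a low share of members were also high here, with 24 of 27 on chromosome 20, 12 of 13 on chromosome 10 and 8 of 8 on chromosome 17. Chromosomes 5 and 6 had 4 of 4 and 2 of 2.

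**Figure D3:**
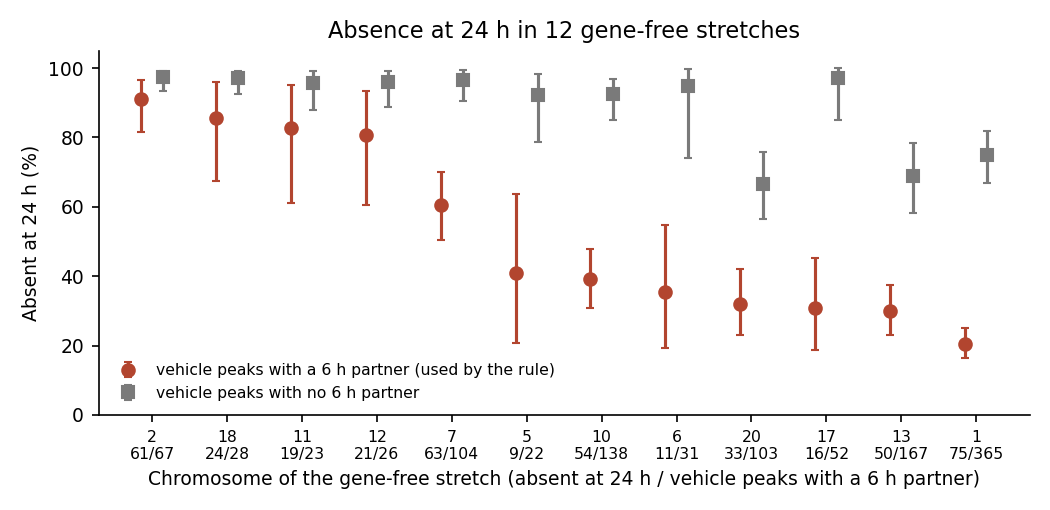
Share (%) of vehicle peaks absent at 24 h in 12 gene-free stretches, for peaks with a 6 h partner (circles, counts under the axis) and peaks with none (squares), with Clopper-Pearson 95% intervals. Circles run between 91.0% on chromosome 2 and 20.5% on chromosome 1, while squares stay between 66.7% and 97.4%.

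The number of peaks per stretch in the whole lists also differed. These counts come from the same lists as the shares above and are not separate evidence. The stretch of chromosome 2 (chr2:92035128-94192530) held 219 peaks in vehicle, 97 at 6 h and 11 at 24 h, and that of chromosome 18 held 164, 62 and 11. The stretch of chromosome 1 (chr1:121571889-143299517) held 505, 430 and 402 peaks and that of chromosome 13 held 254, 206 and 193. All 29 stretches together held 2447 vehicle peaks (34.5% of the list), 1465 peaks at 6 h (11.8%) and 1067 at 24 h (1.76%). The contrast between stretches was not kept with lists of equal length. With both T3 lists limited to their 7103 strongest peaks, 50 of 50 partnered vehicle peaks of the chromosome 2 stretch and 297 of 306 (97.1%) of the chromosome 1 stretch were absent at 24 h. With an IDR of at most 0.01 in all lists, where the IDR is the irreproducible discovery rate of a peak between replicates, the shares were 88.9% of 27 and 27.0% of 233. With replicate summits within 100 bp in vehicle and 6 h, the chromosome 2 stretch kept only 7 partnered vehicle peaks. Of these, 5 were absent (71.4%, 29.0 to 96.3), against 31 of 150 (20.7%, 14.5 to 28.0) on chromosome 1.

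**Figure D4:**
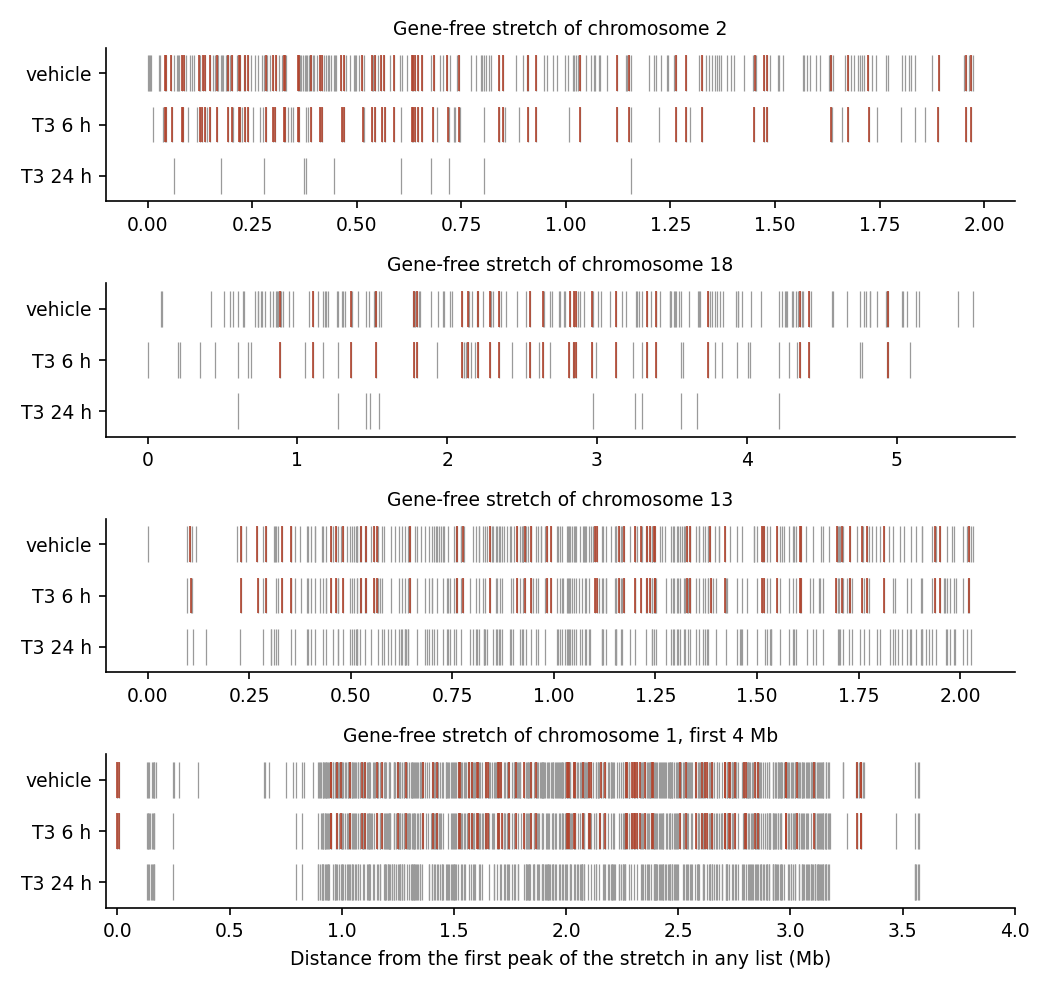
Peaks of the 3 lists along 4 gene-free stretches, by distance (Mb) from the first peak of the stretch, with members and their 6 h partners in red and all other peaks in grey. On chromosomes 2 and 18 the 24 h row holds 11 peaks each, while on chromosomes 13 and 1 it holds 193 and 402 (of the latter, 22 lie beyond the 4 Mb drawn).

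Most of the strongest members were in these stretches, and so were most of the strongest vehicle peaks as a whole. Of the 711 vehicle peaks in the strongest of 10 equal signal classes, 460 were in gene-free stretches. Signals are the authors' and their normalisation is not stated, so each is read within its list only, as a percentile. The member with the highest vehicle signal, chr17:26140188-26141592, had signals of 12.3 and 7.68 in the 2 replicate columns at 6 h and 15.7 and 17.4 in vehicle, at percentiles 97.4 and 98.4 of the lists. The member at chr10:41206987-41207875 had 12.1 and 12.6 at 6 h and 15.004 and 17.7 in vehicle, and that at chr17:23804420-23805453 had 7.58 and 12.99 at 6 h and 14.3 and 15.99 in vehicle. In each of the 3 the second replicate column was the higher in vehicle. They lay between 1153255 bp and 2099974 bp from the nearest end of a protein-coding gene. Of the 10 members with the highest vehicle signal, 8 were in gene-free stretches, 1 was on the unplaced scaffold Un_KI270465v1, where no 24 h peak was listed, and 1 was at chr21:10270078-10270555, 251309 bp from TPTE, a testis-expressed phosphatase gene.

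The 6 h list put other members first. Its strongest partner belonged to the member at chr10:40446650-40447587, with 12.7 and 17.5 at 6 h (percentile 99.0) and 5.65 and 6.37 in vehicle (percentile 78.2). A 24 h peak lay only 407 bp away from that member. The members at chr10:40343180-40343601 and chr10:40340866-40342922 shared a single 6 h partner of signal 27.1, so that 764 members had 763 distinct partners. Outside the stretches the strongest was at chr2:117023274-117023703, 791095.5 bp from DDX18, an RNA helicase gene, with 15.6 and 10.0 at 6 h and 12.9 and 9.45 in vehicle. Its replicate summits lay 2 bp apart at 6 h and 9 bp in vehicle, and the nearest 24 h peak was 511962 bp away.

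Members were of middle to high strength in both lists. Their partners had a median percentile of 60.1 in the 6 h list (interval 56.4 to 63.2) and they themselves one of 64.1 in the vehicle list (60.8 to 67.5). Vehicle peaks in all 3 lists had medians of 88.1 and 80.6 in the same order. In gene-free stretches the members' medians were 61.4 at 6 h and 72.6 in vehicle, and elsewhere on chromosomes 58.9 and 49.6. Vehicle peaks in all 3 lists were also stronger in stretches, with medians of 92.0 at 6 h and 89.2 in vehicle, against 81.4 and 67.0 elsewhere. When vehicle peaks were divided by signal into 10 equal classes, 14.2% (11.6 to 17.1) of the partnered peaks in the top class were members, against 41.1% (31.9 to 50.8) in the weakest and 45.9% in the fourth from the bottom. In the strongest class the share was 18.6% (78 of 419 peaks) in gene-free stretches and 4.24% (7 of 165 peaks) elsewhere on chromosomes. Across members the 6 h and vehicle signals had a Spearman rho of 0.28, and 41 members were in the top 10% of both lists, 37 of them in gene-free stretches.

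**Figure D5:**
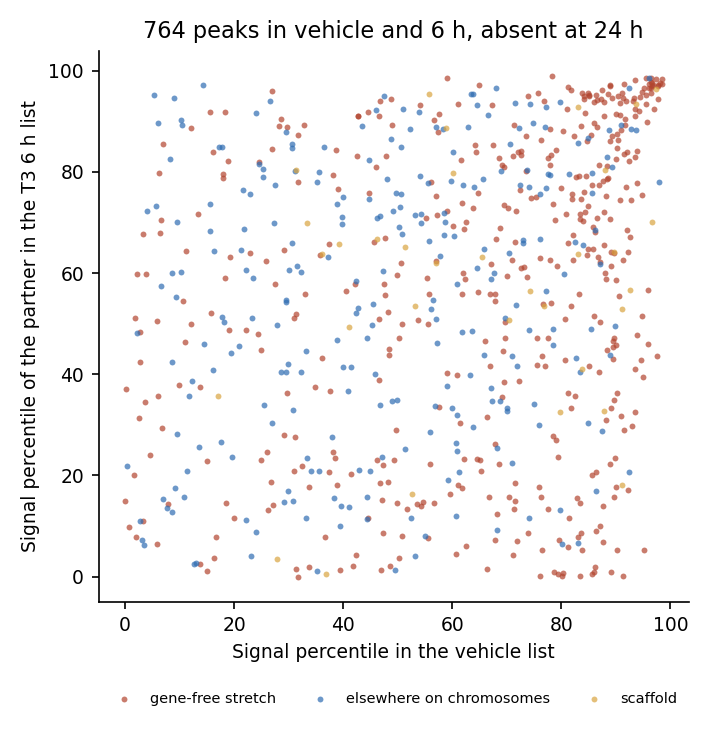
Signal percentile of each member's 6 h partner in the 6 h list against the member's own in the vehicle list, coloured by position. The points of gene-free stretches are spread along both axes, with quartiles of 27.9 and 83.9 at 6 h and 47.3 and 87.2 in vehicle. Of the 41 members in the top 10% of both lists, 37 are among them.

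Replicate summits of members were closer together in the gene-free stretches, as they were for other vehicle peaks. The median distance for members was 96 bp at 6 h and 44 bp in vehicle, against 306 and 238.5 bp for members elsewhere on chromosomes. In the vehicle list it was 14 bp in stretches and 150 bp elsewhere for peaks in all 3 lists, and 122 and 248 bp for peaks in vehicle only. In 182 of the 467 members in stretches, both lists had replicate summits within 100 bp, and in 21 of the 264 elsewhere. The stretches were not alike in this. With both lists limited to such peaks, 5 members were left in the chromosome 2 stretch, which had 61, and 31 in that of chromosome 1, which had 75. The signals of the 2 replicate columns had a Spearman rho across members in stretches of -0.06 at 6 h and 0.39 in vehicle, and across members elsewhere of -0.46 and -0.28. These peaks were selected on both columns. The 6 h and vehicle summits lay within 50 bp of each other in 39.4% of the members in stretches and 14.4% of those elsewhere. The same shares were 58.1% and 29.8% for vehicle peaks in all 3 lists. Members were 187 to 6247 bp wide, with a median of 1308 bp, close to the 1271 bp of peaks in all 3 lists. The widest, chr2:94146741-94152987, and the third widest, chr2:92755232-92760256, were both in the chromosome 2 stretch.

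Elsewhere on the chromosomes, 264 members formed a thin scatter. Their median distance to an end of a protein-coding gene was 62.4 kb, and 105 of them (39.8%, 33.8 to 46.0) lay over 100 kb away. Outside the stretches the median was 31.6 kb for peaks in all 3 lists and 40.9 kb for the whole vehicle list, with 25.9% (22.8 to 29.1) and 30.2% (28.8 to 31.6) over 100 kb away. On chromosomes 5, 7, 10 and 20 stood 107 of the 264 (40.5%, 34.6 to 46.7), against 27.3% (24.2 to 30.7) of the peaks in all 3 lists and 34.1% (32.7 to 35.5) of the whole vehicle list there. The intervals of the members and of the whole vehicle list overlapped. Among partnered vehicle peaks outside stretches, the share of members was highest on chromosome 19, at 11 of 20 (55.0%, 31.5 to 76.9), followed by chromosomes 10, 9 and 21 at 38.2%, 36.6% and 36.5%. The intervals of chromosomes 9 and 21 included the 25.9% for all chromosomes outside stretches, and those of chromosomes 19 and 10 lay above it. Chromosomes 19 and 10 were named because they ranked highest, and peaks are not replicates, so the intervals are no test. Within 5 Mb of a gene-free stretch lay 47 of the 264 members (17.8%) and 12.3% of the vehicle peaks outside stretches. The 33 members on scaffolds were spread over 24 of them, led by 2_KI270715v1_random with 6 members among 14 vehicle peaks and 1 peak at 24 h.

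At gene ends the 6 members belonged to 6 genes. For TDRD1, a Tudor-domain protein of the germline piRNA pathway, the peak at chr10:114233087-114235419 lay at the 3′ end of the gene, with 2.85 and 8.63 at 6 h and 7.14 and 6.31 in vehicle. The replicate columns were far apart at 6 h and close in vehicle. The peak of FETUB, a secreted fetuin of liver, lay at chr3:186652466-186654108 with 4.74 and 5.26 at 6 h and 5.36 and 6.70 in vehicle. That of CNPY3, an endoplasmic reticulum chaperone of Toll-like receptors, lay at chr6:42938797-42939860 with 6.65 and 4.95 at 6 h and 4.97 and 5.63 in vehicle. Both were at the 3′ end of the gene, like the peak of MBD3L4. At LOC124904583 the peak was at the annotated gene start, at chr1:202825683-202827291, with 4.26 and 4.72 at 6 h and 3.20 and 5.80 in vehicle. For FAM90A9, a gene of a multicopy family, the side was not determined. At LOC124904583 a 24 h peak overlapped the member by 38.3% of the shorter peak, under the 50% of the rule.

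Inside genes, the 10 members with the highest vehicle signal, named after their values were seen, lay in U2AF2, ZC3H3, DNAJC2 and PMPCB, AK3, DSCAM, ANKS1B, SIRPG, RUNDC3B, KCNJ6 and ATRNL1. The peak in U2AF2, the large subunit of the splicing factor U2AF, had 4.10 and 9.09 at 6 h and 6.43 and 9.37 in vehicle. It was 508 bp wide, its replicate summits lay 9 bp apart in both lists, and a 24 h peak stood 4318 bp away. The peak in AK3, a mitochondrial adenylate kinase, had 5.69 and 6.49 at 6 h and 7.55 and 6.90 in vehicle. The peak in DSCAM, a neuronal adhesion molecule, had 4.74 and 7.08 at 6 h and 7.43 and 6.01 in vehicle and lay 292525 bp from the nearest 24 h peak. Their percentiles were 89.3, 83.0 and 79.7 in the 6 h list and 90.8, 88.3 and 85.6 in the vehicle list, in the order U2AF2, AK3 and DSCAM.

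Among the members outside gene-free stretches, 159 had a protein-coding gene end within 100 kb. IL6, the gene of the inflammatory cytokine interleukin-6, was the nearest gene of 2 of them, and each of the other 157 genes was nearest to 1. The nearer, chr7:22734984-22736055, lay 3250.5 bp from the nearest end of the gene, with 3.39 and 6.71 at 6 h and 4.89 and 5.84 in vehicle, and had a 24 h peak 3393 bp away. The other, at chr7:22634829-22636045, was 91931.5 bp from the gene, with 3.79 and 7.54 at 6 h and 5.33 and 4.19 in vehicle. Both were of middle rank in their lists, at vehicle percentiles 63.7 and 38.8.

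Lists of thyroid differentiation and hormone response genes held no member. Of 18 thyroid differentiation genes, 25 thyroid hormone response genes, 27 SWI/SNF subunit genes, 20 AP-1 and immediate early genes, 22 housekeeping genes and 26 very long genes, 0 had a member as the nearest gene within 100 kb, at an end or inside. The whole vehicle list held 5, 4, 5, 0, 3 and 8 peaks nearest to genes of these lists, and 2, 3, 3, 0, 3 and 34 inside them. At a gene end it held 1 peak, in the housekeeping list. Among 1322 genes of multicopy families such as olfactory receptors and zinc finger genes, 12 were the nearest gene of a member, against 150 genes for the whole vehicle list. They included OR2Z1, ZNF341, ZNF383, ZNF91, POTEC and POTEH. With so few vehicle peaks near these lists, a count of 0 among the 10.8% of peaks that are members is not a result about the members. The 34 peaks inside very long genes are more, but only 84 of 1671 vehicle peaks in gene bodies (5.03%) were members. A count of 0 there was not tested. The labelled cell type could not be checked on these regions.

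Most members did not touch a 24 h peak. The median distance to the nearest 24 h peak was 14855 bp, 316 members had a 24 h peak within 10 kb, and for 7 members on scaffolds no 24 h peak was listed on the same sequence. Only 11 members touched a 24 h peak at all. Peaks in the vehicle list only, absent at 24 h by the same rule, touched one in 52 of 3949 cases. Their median distance was 19020 bp, and 1308 of them had a 24 h peak within 10 kb. Just inside the rule were chr6:13870300-13871918, overlapped by 49.2% of the shorter peak, chr1:124362919-124364612 by 48.0% and, in ALK, chr2:29279569-29281617 by 44.9%. Just outside it were the vehicle peaks at chr13:17547534-17549642 with 50.7%, chr12:106986971-106988412 at the end of MTERF2 with 51.5% and chr10:40673683-40674578 with 52.3%, which count as present at 24 h.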

How the data were processed

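ATAC-seq of 6 samples of the Nthy-ORI cell line (50000 cells per transposition) was given as 3 peak lists. The submitters' processing notes list hg38 and the tools Bowtie2, MACS2, DiffBind, Trim Galore and CASAVA 1.7. For their roles and settings, the Tn5 read shift, duplicates, blacklisted regions and multi-mapped reads, details were not given in the sources used here. In each list, the authors' deposited score is a scaled IDR, the deposited −log10 IDR gave an IDR of at most 0.05 for every peak, and the deposited signal is the sum of 2 replicate columns without sample names. Overlaps were computed in Python 3.11.15 (pandas 2.3.3, scipy 1.17.1, numpy 2.4.6), checked against bedtools 2.31.1 and tested on simulated data, where 100% of 1000 planted peaks were recovered. A peak was placed at the midpoint between its replicate summits. Gene positions and the 35116 promoter windows came from RefSeq GRCh38.p14, the assembly of hg38, with 20037 protein-coding genes on chromosomes. No genome sequence was used. The comparison promoter was the one whose peak had the highest vehicle signal within the genes considered for printing, outside chromosome 8. The genes named are those of the members with the highest signal, at gene ends, widest, narrowest, near the overlap limit, nearest to most members outside the stretches or in 8 gene lists. The result for 1 of these lists is not reported here. Members and lists were chosen with earlier results of these data known, and the gene-free stretches and the members named inside genes after seeing the data.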

Additional observations from a re-analysis of the deposited data

How the results depend on the processing

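Of 70 recomputed values, 37 stayed within the interval of the reported value or, for the count, within 1.5 times it. No paired analysis was possible because replicate columns are unnamed and no result comes from a test, and no replicate could be left out of the merged lists. The count of 764 members became 219 with an IDR of at most 0.01 in vehicle and 6 h, 319 with that limit in all 3 lists, 1621 with lists of equal length, 207 with replicate summits within 100 bp and 368 without the 1 Mb windows of 5 or more members. Under the same 5 settings the share of partnered vehicle peaks absent at 24 h, 32.4%, was 18.1%, 26.4%, 86.3%, 24.97% and 27.3%, the median vehicle percentile, 64.1, was 84.9, 84.3, 78.0, 78.5 and 55.8, and the share in gene-free stretches, 61.1%, was 78.1%, 78.1%, 52.9%, 87.9% and 20.1%. The last setting leaves out 396 members by construction. The median 6 h percentile, 60.1, was 84.4, 85.6 and 85.3 under the first 3. With 50% of both peaks required, the absent share was 40.5% and the medians 69.9 at 6 h and 68.7 in vehicle, and with no 24 h peak allowed within 1 kb the absent share was 30.1%. The share at gene ends, 0.785%, was 2.10% with lists of equal length and 3.80% within 5 kb. Ranked by the first replicate column the vehicle median was 59.1; by the second, the medians were 50.8 at 6 h and 58.2 in vehicle. With stretches of at least 5 Mb only, 20.4% of members lay in them. Other causes were not tested. Depth is unknown, so absence at 24 h cannot be set against it.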
